A study of Mus musculus with 8 samples.

Results

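The 4 LIM-only genes Lmo1, Lmo2, Lmo3 and Lmo4 and the 2 LIM-domain-binding genes Ldb1 and Ldb2 were followed in neocortex of newborn mice. Conditional mutants of the transcription factor Bcl11a, with both copies floxed, were compared with controls carrying 1 floxed copy and the same Cre. The 6 genes were matched by exact symbol to the annotation of the array, each had 1 probe set, and they are 6 of 19938 genes measured. The family was selected on the mutant-against-control differences of Lmo3, Lmo4 and Ldb2, which were known from an earlier look at the same arrays. The differences of all 6 genes between the genotypes are therefore given as a description, and their adjusted p-values only place each gene within the fit over all genes.

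LIM-only (LMO) proteins consist of a pair of LIM zinc-binding domains with no DNA-binding domain of their own. LIM-domain-binding (LDB) proteins dimerise, hold LIM domains through a short interaction domain, and join LIM-homeodomain, basic helix-loop-helix (bHLH) and GATA factors into complexes at enhancers. LMO proteins compete with LIM-homeodomain factors for LDB and can recruit other partners in their place. In the postnatal mouse cortex Lmo4 is known for a pattern that differs between areas and layers, and Ldb2 is used as a label of subcerebral projection neurons of layer V.

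The tissue was layers II to IV of the neocortex, cut by laser from pups at postnatal day 2, and total RNA of each pup was run on 1 GeneChip Mouse Gene 1.0 ST array. The 4 mutant pups were Bcl11a flox/flox;Emx1 IRESCre/+ and the 4 control pups were Bcl11a flox/+;Emx1 IRESCre/+. All 8 pups thus carried Cre at the Emx1 locus and at least 1 floxed allele, so controls can lose 1 copy of Bcl11a where Cre acts. Emx1 marks the lineage of cortical excitatory neurons and much of the glia, so interneurons, microglia and vessels of the mutant tissue are not expected to carry the deletion. Nothing in the labels says whether the pups came from separate litters, so p-values measure the spread between these 8 arrays.

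Values are log2 array intensities, and differences are mutant minus control on that scale. The log base is not stated by the labels and was taken from the range of the values, so fold changes assume base 2. Array medians lay between 4.83 and 4.91. Bcl11a itself read 8.56, 8.85, 8.37 and 8.75 in the mutants, against 10.59, 10.52, 10.34 and 10.34 in the controls, a difference of -1.82 (SE 0.10). High Xist marked 1 mutant and 2 controls as female, and the highest reading of 3 Y-linked genes on those arrays, 4.31, served as an empirical floor. All 6 family members averaged above it in both genotypes. Control 1 stood apart for some genes, including Lmo1 and Ldb2, and the differences of these 2 members are given with and without it.

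Promoter sequences from RefSeq (build GRCm38.p6) were matched for 4 of the 6 members: Lmo1, Lmo3, Lmo4 and Ldb1. The 250 bases before the most upstream listed start of Lmo1, Lmo3 and Lmo4 are shown, because these are the LIM-only genes that differed most between the genotypes, in opposite directions. They are written 5′ to 3′, with matches in capitals to CANNTG, the E-box bound by bHLH factors, or to TAATTA, a core bound by LIM-homeodomain factors. Both of these motifs read the same on either strand.
Lmo1 promoter, chr7:109175208-109175457, minus strand: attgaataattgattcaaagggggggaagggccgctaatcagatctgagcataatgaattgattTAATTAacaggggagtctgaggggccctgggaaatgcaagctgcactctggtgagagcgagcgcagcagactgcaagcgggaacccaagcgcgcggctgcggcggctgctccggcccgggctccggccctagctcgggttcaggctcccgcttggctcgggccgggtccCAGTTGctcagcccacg
Lmo3 promoter, chr6:138581969-138582218, minus strand: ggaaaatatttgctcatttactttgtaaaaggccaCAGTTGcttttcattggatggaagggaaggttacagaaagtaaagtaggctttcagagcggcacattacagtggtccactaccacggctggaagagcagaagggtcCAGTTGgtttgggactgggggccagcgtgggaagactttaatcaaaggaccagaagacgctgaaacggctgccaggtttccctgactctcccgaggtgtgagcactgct
Lmo4 promoter, chr3:144205256-144205505, minus strand: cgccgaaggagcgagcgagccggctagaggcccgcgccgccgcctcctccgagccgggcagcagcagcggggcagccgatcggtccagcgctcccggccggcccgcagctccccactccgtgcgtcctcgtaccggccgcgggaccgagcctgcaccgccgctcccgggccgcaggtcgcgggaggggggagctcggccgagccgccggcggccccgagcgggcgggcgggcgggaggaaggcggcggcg
The Lmo3 window held 2 E-boxes and the Lmo1 window 1, along with 1 TAATTA, while the Lmo4 window shown held neither motif and had a GC content of 82.4%, against a median of 52.4% for all windows. Lmo4 has 2 further listed windows, at starts downstream, and each of these held 1 E-box. An E-box was present in 66.2% and TAATTA in 4.8% of the 32851 windows of the same length. TGACCA, the sequence known to be bound by the human BCL11A protein, was searched on both strands, as was TTCNNNGAA, a palindrome contained in Bcl6 sites. Neither was found in any of the 9 windows listed for the 4 genes, and they occurred in 11.4% and 7.0% of all windows. A missing match says only that these letters are not in the window.

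Across the family, 4 of 6 members passed an adjusted p of 0.05 in the fit over all genes. Lmo1, Lmo4 and Ldb2 were higher in the mutants and Lmo3 was lower, while Lmo2 and Ldb1 did not pass. Over all 19938 genes 4.15% passed, 2.36% higher and 1.79% lower in the mutant, but the family was chosen on this contrast and nothing is read from its share. The values of mutants and controls did not overlap for 5 of the 6 members, all but Lmo2, against 9.25% of all genes. Without control 1 the same 4 members passed. By size of difference Ldb2 ranked 27, Lmo3 42, Lmo1 47 and Lmo4 58 among the 19938 genes. Without control 1 the order was Lmo3 at 37, Lmo4 at 39, Ldb2 at 57 and Lmo1 at 109.

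**Figure D1:**
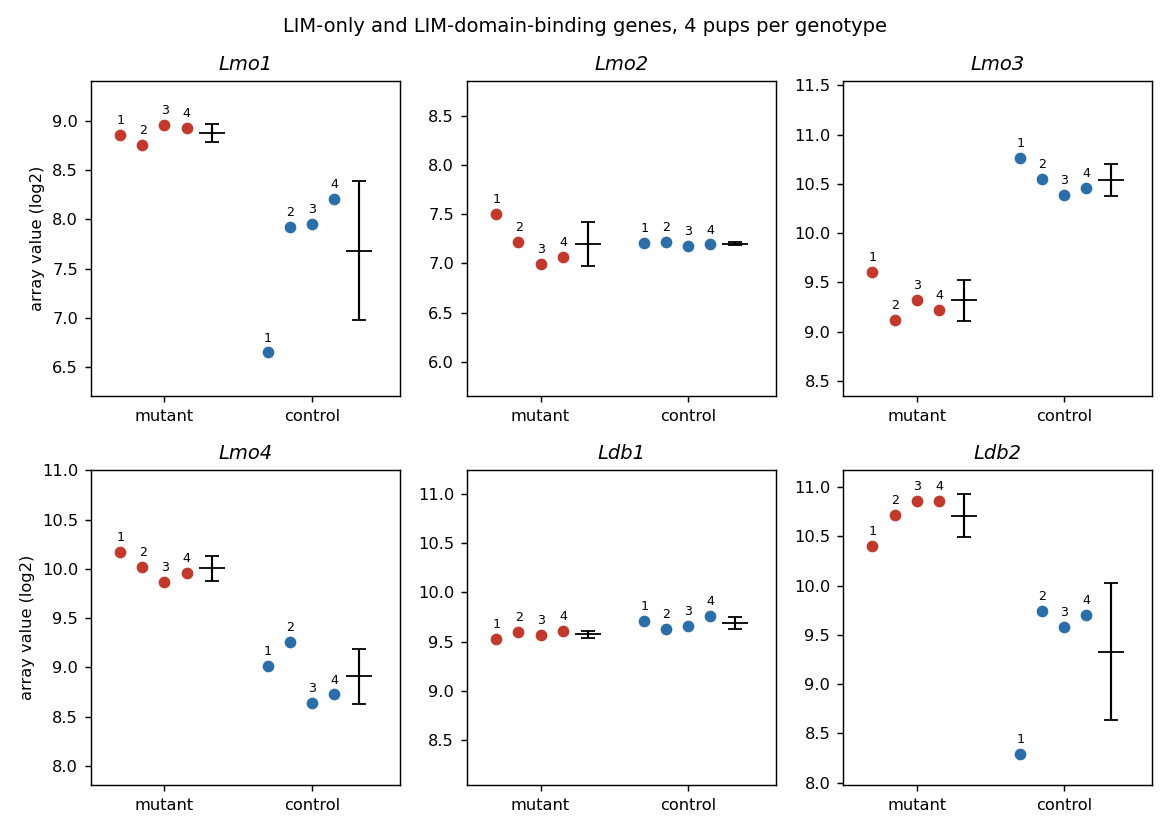
Array values (log2) of the 6 family members in the 4 mutant and 4 control pups, with pup numbers beside the points and the mean with its SD to the right of each group. Each panel spans the same number of log2 units around its own centre, since levels of different probe sets cannot be compared; Lmo3 is lower and Lmo1, Lmo4 and Ldb2 are higher in every mutant than in every control, and control 1 lies far below the other controls for Lmo1 and Ldb2.

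Lmo4 encodes a LIM-only adaptor of cortical projection neurons. It read 10.17, 10.02, 9.87 and 9.96 in the mutants, against 9.02, 9.25, 8.64 and 8.73 in the controls. Every mutant lay above every control, with 0.62 between the lowest mutant and the highest control. The means were 10.01 ± 0.13 in mutants and 8.91 ± 0.28 in controls (SD, n = 4 each), a difference of 1.10 (SE 0.12, 95% interval 0.84 to 1.35). This is 2.14-fold higher in the mutant (limma adjusted p = 1.12e-04). The difference stayed between 1.01 and 1.21 whichever array was left out.

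Lmo3, a LIM-only gene whose human counterpart acts as an oncogene in neuroblastoma, went the other way. It read 9.60, 9.12, 9.32 and 9.22 in the mutants, against 10.77, 10.55, 10.39 and 10.46 in the controls. The groups were separated by 0.78, more than the whole range within either of them (0.48 in mutants and 0.38 in controls). The means were 9.32 ± 0.21 in mutants and 10.54 ± 0.16 in controls (SD, n = 4 each), a difference of -1.22 (SE 0.11, 95% interval -1.45 to -1.0). Lmo3 was thus 2.34-fold lower in the mutant (limma adjusted p = 1.87e-05), with -1.32 to -1.15 when single arrays were left out. Set against one another, the log2 differences of Lmo4 and Lmo3 were 2.32 apart.

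Lmo1, the first described LIM-only gene and, in humans, a target of translocations in T-cell leukaemia, had the most even values of the 3 LIM-only genes that differed among mutants and the most uneven among controls. The mutants read 8.86, 8.76, 8.96 and 8.92, against 6.65, 7.92, 7.95 and 8.21 in the controls. Every mutant was above every control by at least 0.54, and control 1 lay 1.27 below the next lowest control. The control SD of 0.70 exceeded that of 99.9% of all genes, whereas the mutant SD of 0.09 exceeded that of 41.2%. With all arrays the means were 8.87 ± 0.09 in mutants and 7.68 ± 0.70 in controls (SD, n = 4 each), a difference of 1.19 (SE 0.25, limma adjusted p = 0.0136), or 2.28-fold.

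Without control 1, the 3 other controls averaged 8.03 ± 0.16 for Lmo1 and the difference was 0.85 (SE 0.09, limma adjusted p = 6.18e-05), or 1.80-fold. The size of the Lmo1 difference therefore depended on that array, while its direction did not. The call was lost without mutant 4 (adjusted p = 0.0506), with an intensity trend and robust variances (0.145) and without moderation of the variances (0.234).

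Lmo2 is known as a bridge between bHLH and GATA factors in blood and endothelial cells. It read 7.50, 7.22, 7.0 and 7.07 in the mutants, against 7.21, 7.22, 7.18 and 7.19 in the controls. The controls fell within the range of the mutants, and their SD of 0.02 was above that of only 0.8% of all genes, while the mutant SD of 0.22 was above that of 96.2%. The difference was -0.0017 (SE 0.09, limma adjusted p = 0.997), with a 95% interval of -0.21 to 0.20. Its sign turned when mutant 3, mutant 4, control 1 or control 2 was left out. Of 10 measured endothelial markers none passed in either direction, beside 4.15% of all genes, though Kdr (-0.27) did with the replicate number as a block (limma adjusted p = 0.04997). Kdr and Flt1 (-0.23) were lower in every mutant than in every control. Over all genes, 9.25% had groups that did not overlap. The averaged level of the 10 markers ran from 6.27 to 6.44 in mutants and from 6.39 to 6.45 in controls. Of 9 microglial and 2 blood cell markers none passed either, and 4 of the microglial markers were at or below the floor. With 4.15% called over all genes, lists this short can hold no call, so these counts do not set them apart.

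Ldb1, the widely used LDB cofactor, differed little. It read 9.53, 9.60, 9.57 and 9.61 in the mutants, against 9.71, 9.63, 9.66 and 9.76 in the controls. All mutants were below all controls, but only by 0.02 at the closest pair of values. The difference was -0.12 (SE 0.06, 95% interval -0.25 to 0.02) and did not pass (limma adjusted p = 0.443). The interval allows Ldb1 to be up to 1.19-fold lower in the mutant.

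Ldb2, the paralogue of Ldb1, had the largest difference of the family with all arrays, and the third largest, after Lmo3 and Lmo4, without control 1. It read 10.40, 10.72, 10.86 and 10.86 in the mutants, against 8.29, 9.74, 9.58 and 9.71 in the controls. The lowest mutant was 0.66 above the highest control, and control 1 was 1.29 below the next control. The means were 10.71 ± 0.22 in mutants and 9.33 ± 0.70 in controls (SD, n = 4 each), a difference of 1.38 (SE 0.25, 95% interval 0.83 to 1.93, limma adjusted p = 0.0062), or 2.60-fold.

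Without control 1 the controls averaged 9.68 ± 0.08 for Ldb2, and the difference was 1.03 (SE 0.10, limma adjusted p = 6.2e-05), or 2.05-fold. Leaving out any other single array gave 1.33 to 1.52. The call was lost with an intensity trend and robust variances (adjusted p = 0.116) and without moderation (0.185). The log2 differences of Ldb2 and Ldb1 were 1.50 apart with all 8 arrays, and were 1.03 and -0.11 without control 1.

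**Figure D2:**
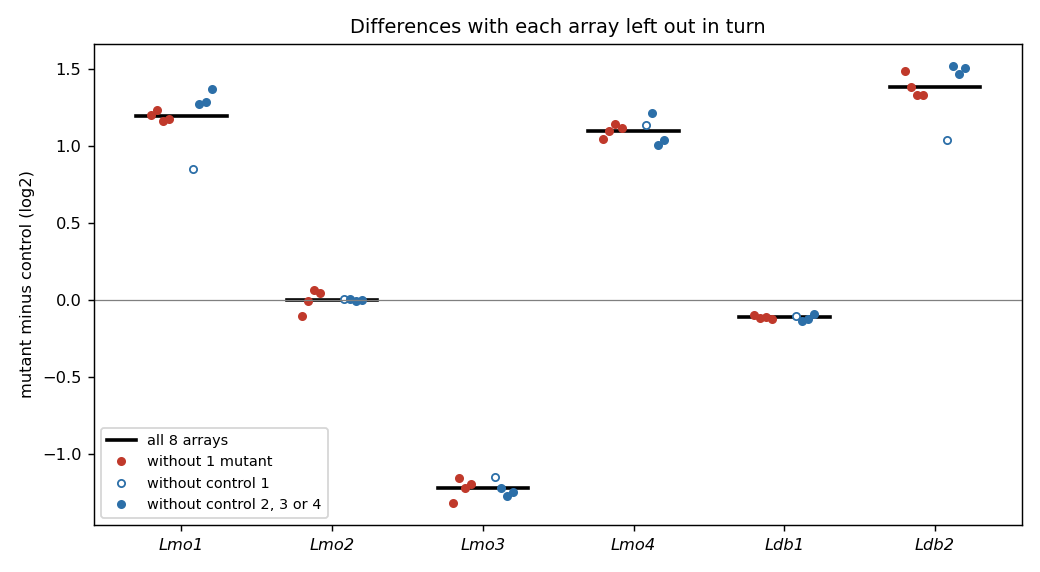
Mutant-minus-control difference (log2) of each member with all 8 arrays (black line) and with single arrays left out (points; open circle, without control 1). For Lmo1 and Ldb2 the open circle falls to 0.85 and 1.03, against 1.19 and 1.38 with all arrays, while Lmo3 and Lmo4 move little.

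Deep-layer markers were set beside Ldb2 and Lmo1. Of the 13 measured, 2 rose, 1 fell and 10 did not pass, where 4.15% of all genes passed. Their median difference was 0.16, beside 0.02 for all genes. The list held no family members. The averaged level of the 13 was 7.16 to 7.25 in mutants, against 6.75 in control 1 and 6.99 to 7.05 in the other controls. None of the 13 was at or below the floor. Crim1 (difference 1.07) and Pcp4 (0.95) rose in the mutant, and Ntsr1, a layer VI marker, fell (-0.90). Over the 13 markers, the median of control 1 minus the mean of the other controls was -0.21, against 0.01 over all genes. Crim1 read 6.66 in control 1, against 7.01 to 7.20 in the other controls. Control 1 was not low for Ntsr1, which read 8.77 there, against 8.55 to 8.84 in the other controls. Pcp4 read 7.37 in control 1, against 8.18 to 8.55 in the other controls, and differed by 0.70 without that array. Its call was lost without mutant 3 or mutant 4 (adjusted p = 0.0663 and 0.0754) and with an intensity trend and robust variances. The layer V regulators Fezf2 (0.80, limma adjusted p = 0.105) and Bcl11b (0.05, adjusted p = 0.919) did not pass, nor did Sox5 (0.07). Fezf2 read 7.05 in control 1, the highest of the controls. Bcl11b read 7.07 there, against 7.26 to 7.44 in the other controls, and Sox5 read 7.45, against 8.35 to 8.60. The part of layer makeup in the values of Ldb2 and Lmo1 was not tested. In bulk tissue, fewer cells of a type and less RNA per cell cannot be told apart.

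The other marker lists were followed as well, beside 4.15% of all genes called in either direction. Of 9 upper-layer markers, 5 fell (Cux2, -1.29; Mdga1, -1.07; Pou3f2, -0.38; Cux1, -0.35; Pou3f3, -0.35). The averaged level was 8.81 to 9.0 in mutants and 9.13 to 9.29 in controls, so markers of the dissected layers were present in every array. All 13 deep-layer markers averaged above the floor too, so this presence does not check which layers were cut. The 4 that did not pass were Unc5d (0.46, higher in every mutant than in every control, limma adjusted p = 0.0659), Plxnd1 (0.25), Rorb (0.11) and Inhba (-0.27), so members of the list went both ways. Of 13 interneuron markers, 3 fell (Npy, -1.63; Dlx1, -0.46; Nxph1, -0.31), with averaged levels of 7.14 to 7.18 in mutants and 7.45 to 7.54 in controls. Among 10 genes of astrocytes and radial glia, Vim fell (-0.36), and their levels were 7.47 to 7.67 in mutants and 7.55 to 7.79 in controls. Of 8 striatal markers Meis2 rose (1.24), and the others, Drd1, Drd2 and Ppp1r1b among them, did not pass. The averaged level was 6.44 to 6.47 in mutants and 6.30 to 6.34 in controls, and without Meis2 the other 7 averaged 5.73 to 5.79 in mutants and 5.73 to 5.82 in controls. None of 6 oligodendrocyte lineage genes passed, nor did Kdr (-0.27), Flt1 (-0.23), C1qa (-0.22), Csf1r (-0.07), Alas2 (-0.14), Slc4a1 (0.08), Pdgfra (-0.28) or Cspg4 (-0.27). The calls of Pou3f3, Nxph1 and Vim were lost without 5, 7 and 4 of the 8 single arrays (adjusted p from 0.0508 to 0.108). With the mean of its probe sets Nxph1 differed by -0.18 and did not pass (adjusted p = 0.187). Without control 1, the interneuron gene Sst and the glial gene Gfap also fell. What part such cell types have in the family's values was not tested.

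Transcription factors and cofactors that meet LMO and LDB proteins in complexes were followed next. Of 30 measured genes in 4 lists of such partners, 1 rose and none fell with all arrays and also without control 1, beside 4.15% called over all genes. Differences of less than 0.15 in either direction were found for 28 of the 30, and that count was not made over all genes. The lists were written with earlier results of these arrays known. At an unadjusted p of 0.05, 2 of the 30 passed, where 14% of all genes did, so neither count of calls sets the partners apart. The means of 7 of the 30 were at or below the floor, namely Isl1, Lhx9, Nhlh1, Nhlh2, Tal2, Gata1 and Brca1, so a difference in them may not be measurable.

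The gene that passed was Ssbp4, which encodes a single-stranded DNA-binding protein of the family that shields LDB proteins from degradation. It read 8.61, 8.64, 8.44 and 8.61 in the mutants, against 8.42, 8.27, 8.17 and 8.27 in the controls. The groups did not overlap, but mutant 3 and control 1 were only slightly apart. The difference was 0.29 (SE 0.07, limma adjusted p = 0.0414), and the call was lost without mutant 1, 2 or 4 or control 2, 3 or 4 (adjusted p from 0.0944 to 0.132), and with inferred sex in the model (0.0881). Its paralogues Ssbp2 (-0.02) and Ssbp3 (0.15) did not pass, and neither did Rlim (-0.12), the ubiquitin ligase of LDB and LIM-homeodomain proteins.

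Of 11 LIM-homeodomain genes, which compete with LMO proteins for LDB, none passed, and their median difference of 0.03 stood beside 0.02 for all genes. Lhx2, a selector gene of cortical progenitors, read 10.61, 10.25, 10.36 and 10.21 in the mutants, against 10.46, 10.43, 10.42 and 10.35 in the controls, and its difference of -0.06 had a 95% interval of -0.24 to 0.12. Lhx6, a regulator of interneurons from the medial ganglionic eminence, averaged 7.77 ± 0.07 in mutants and 8.01 ± 0.10 in controls (SD, n = 4 each). Its groups did not overlap, but the difference of -0.24 did not pass (limma adjusted p = 0.081). Lhx6 is itself among the 13 interneuron markers, of which 3 fell in the same arrays, beside 1.79% called lower over all genes. What part interneurons have in its value was not tested. Lhx1, next by size, differed by 0.12 (limma adjusted p = 0.497).

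None of 12 bHLH and GATA partners passed (median difference 0.03). The E-proteins, which pair with tissue-specific bHLH factors, were flat: Tcf3 differed by 0.04, Tcf4 by 0.0042 and Tcf12 by -0.06. Tal2 and Gata1 had the largest differences, 0.12 each, at readings near the floor. Of 3 other proteins known to bind LMO4, none passed: the phosphatase gene Ptpn1 differed by 0.12, Brca1 by 0.04 and the transcription factor gene Deaf1 by 0.0069.

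**Figure D3:**
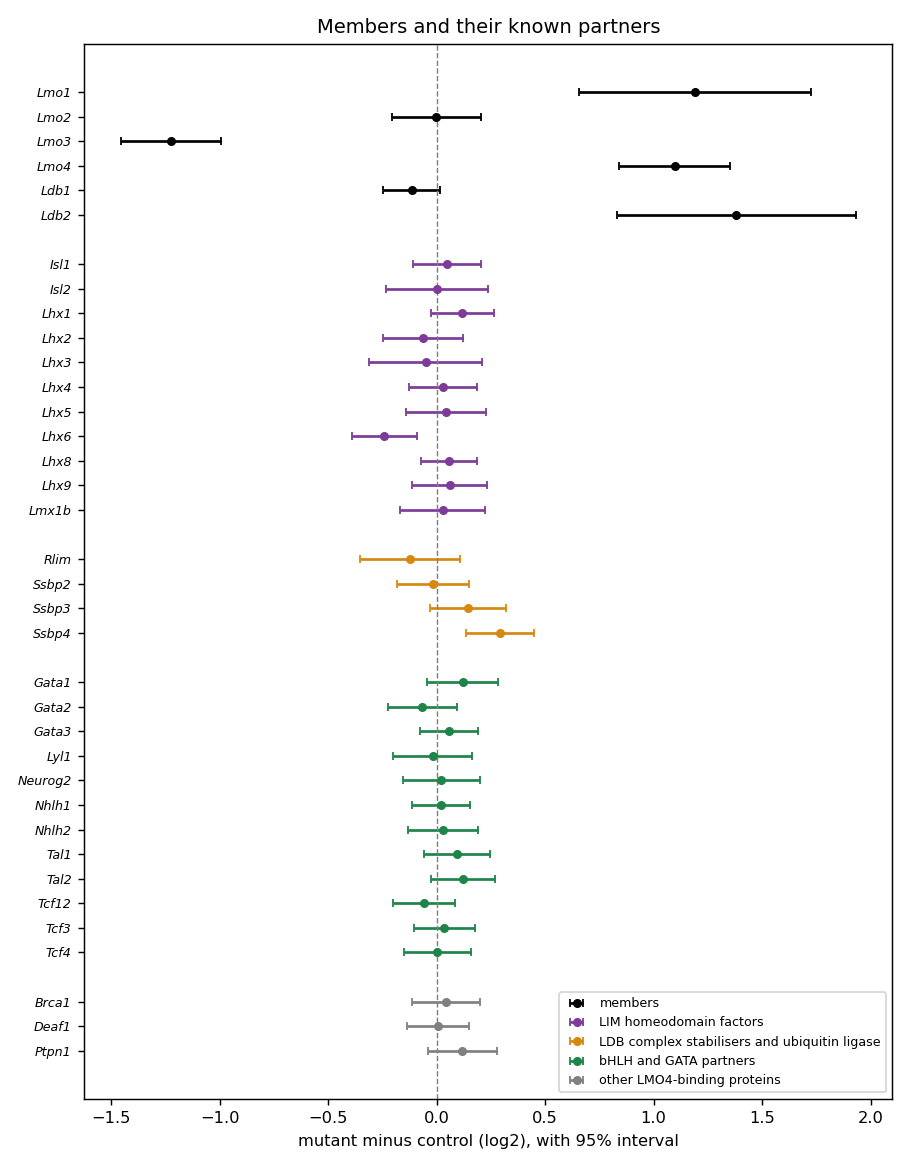
Mutant-minus-control difference (log2) with its 95% interval for the 6 members (black, top) and for 30 genes of 4 partner lists. Lmo1, Lmo3, Lmo4 and Ldb2 lie far from 0, while all partner genes lie between -0.24 and 0.29.

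Genes that share only the LIM domain or the name were also followed. Of 48 measured LIM-domain proteins of the actin, adhesion and kinase families, 3 were lower, 1 was higher and 44 missed the threshold. Over all genes 1.79% were called lower and 2.36% higher. The median difference of the 48 was 0.04, and leaving out control 1 gave the same 4 genes. Fblim1, an adaptor of cell-matrix contacts, was 1.95-fold lower (5.37 ± 0.17 in mutants and 6.33 ± 0.16 in controls, SD, n = 4 each, limma adjusted p = 6.24e-05), and Lpp (-0.56) and Prickle2 (-0.38) also fell. Csrp2, a cysteine-rich LIM protein, rose by 0.44 (limma adjusted p = 0.0057). The call of Lpp was lost without mutant 2 or 4 or control 2 or 3 (adjusted p from 0.0702 to 0.0926) and with inferred sex in the model (0.0645), and that of Prickle2 without mutant 1 or 2 or control 2 or 4 (0.0583 to 0.071). With the mean of its probe sets Lpp differed by -0.34. Ldb3, a muscle PDZ-LIM protein unrelated to Ldb1 and Ldb2 despite its name, differed by 0.07, and Lmo7 by 0.09, and neither passed.

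Lmo3 and Lmo4 are often listed with genes that mark cortical areas. Of 16 measured areal genes other than these, Id2 rose (1.02), 5 fell and 10 did not pass, beside 4.15% called over all genes. Those that fell were the adhesion and guidance genes Tenm3 (-1.49), Cdh6 (-1.21), Efna5 (-0.87) and Cdh8 (-0.73), and Emx2 (-0.42), a homeobox regulator of area size. Without control 1, 7 fell and 1 rose. The averaged level of the 16 genes was 7.34 to 7.49 in mutants and 7.53 to 7.72 in controls.

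For Lmo3, Lmo4 and Ldb2, the 3 genes with the most similar pattern were taken as those whose 8 values, each minus the gene's control mean, had the smallest root mean square difference from the member's values. The genes share the 8 arrays and the genotype contrast, so this is a description. Nearest to Lmo3 were Cacna2d3, a calcium channel subunit gene, at 0.126 log2 units, Cdh6, a cadherin gene, at 0.170, and Klf9, a zinc finger factor gene, at 0.185. Nearest to Lmo4 were Id2, an inhibitor of bHLH factors, at 0.167, Fam160a1 at 0.176 and Dhrs3, a retinal reductase gene, at 0.192. Nearest to Ldb2 were the Wnt ligand gene Wnt7b at 0.158, the guidance ligand gene Slit2 at 0.196 and, from the family itself, Lmo1 at 0.198. Wnt7b and Slit2 were also low in control 1, at -0.90 and -0.66 relative to their own control means, beside -1.04 for Ldb2 and -1.03 for Lmo1. Control 1 was among the 8 values used to choose them, so a low value there follows from the choice.

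**Figure D4:**
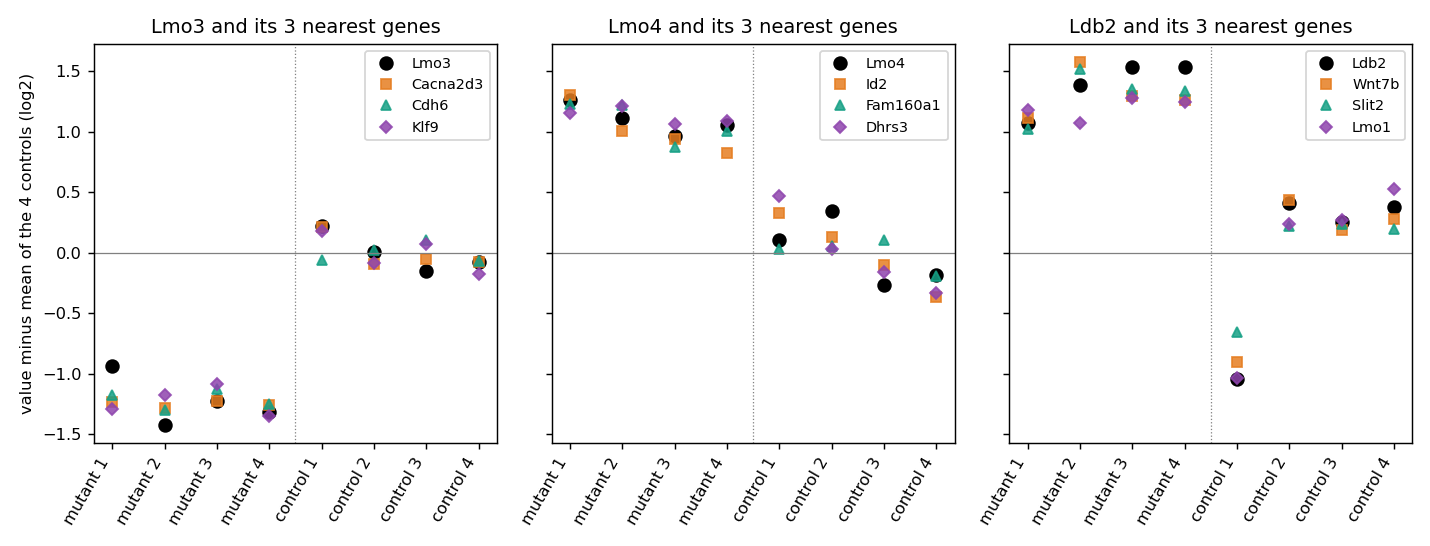
Values (log2, minus the mean of the 4 controls) in the 8 pups for Lmo3, Lmo4 and Ldb2 and the 3 genes nearest to each. Control 1 is among the 8 values by which the genes were chosen. The low value there near Ldb2, and not near Lmo3 or Lmo4, therefore follows from the choice.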

How the data were processed

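Expression was measured on 8 arrays, 4 mutant and 4 control, 1 per pup. Per the labels, the authors used BRB-ArrayTools; how background, normalization between arrays, probe summarisation and log base were handled was not given in the sources used here. Values as deposited span 2.03 to 13.8 and were taken as log2 intensity already normalized by the authors. The value table held 35556 probe sets, of which 21789 had 1 gene symbol and 1621 several in the platform annotation. Probe sets with 1 symbol were kept, the brightest per gene, which gave 19938 genes with no filter on dim genes. All 6 members had 1 probe set each.

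The genotypes were contrasted by limma 3.58.1 under R 4.3.3 (lmFit, eBayes, genotype only, two-sided), with Benjamini-Hochberg adjustment over all 19938 genes and a threshold of 0.05. The procedure was tested on simulated data. The number of arrays limits the precision; the median SE was 0.0766. The members and lists were chosen with earlier results of these data known. Named were the members, Bcl11a, in each list the genes that passed (at most 6) or else the 2 largest differences, and 3 nearest genes each for Lmo3, Lmo4 and Ldb2; other genes were named after their values were seen. Alternatives covered quantile normalization, removal of the dimmest 30% of genes, the mean of probe sets, variance estimation, array weights, a replicate block, inferred sex and omission of each array. Some listed genes were not analysed here. Same-numbered mutants and controls had deviations that correlated at 0.0558 to 0.295 across genes, over 0.1 in 3 of 4 numbers. The labels name no shared litter or batch, and pairing was accepted only if all 4 were over 0.1, so no block was used in the reported fit.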

Additional observations from a re-analysis of the deposited data

Results flagged for a closer look

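The value of Ldb2 in control 1, 8.29, lay so far below the other 3 controls (9.58 to 9.74) that its gap was 0.889 of the group's whole range, above the 95% critical value of Dixon's test for 4 samples. Chance flags about 1 in 20 groups, and 12 groups were tested. Lmo1 in the same array came just under it (0.814). Control 1 was below every other control by more than 1 log2 unit for 24 of 19938 genes. By its distance below the mean of the other controls, Ldb2 ranked 13 and Lmo1 14 among all genes, with Angpt1 (-2.33), the Y-linked Eif2s3y (-2.27) and Gda (-2.0) first. Uty, also Y-linked, was low in control 1 too (-1.62), and 2 controls had high Xist, the mark of females. With inferred sex in the model, Lmo1 differed by 1.09 and Ldb2 by 1.29. Whether the dissection of the control 1 pup differed was not tested.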

How the results depend on the processing

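Lmo3 and Lmo4 passed under all 16 alternatives, with highest adjusted p of 0.0219 and 0.0395, both without variance moderation. Lmo1 kept its direction in all 16 and passed in 13, and Ldb2 in 16 and 14. With an intensity trend and robust variances, and without moderation, the differences of Lmo1 (1.19) and Ldb2 (1.38) were the same by construction but did not pass; without moderation 249 genes passed in place of 827. With single arrays left out, Lmo1 ranged from 0.85 to 1.37 and Lmo2 from -0.10 to 0.065, the sign of Lmo2 turning in 4 of 8 cases. Ldb1 and Lmo2 passed under none. The 44 other genes chosen by the naming rule gave 702 values under alternatives. Of these values, none changed sign, 56 lost the call and 1 gained it (Kdr, replicate block). Genes named after their values were seen were not among the 44. With the replicate block 987 genes passed, and Lmo1 had an adjusted p of 0.00472; 6 of 8 samples correlated best with their own number, a hint from the data only. Array weights gave 1.02 for Lmo1 and 1.23 for Ldb2. The causes of these shifts were not tested. The 4 arrays per group limit what small differences can be shown.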
